A study of Mus musculus with 4 samples.

Results

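Hemogenic endothelium is the small set of endothelial cells in the wall of the embryonic aorta that turns into blood. Here it is described in mouse cells by a rule on raw UMIs, the tags that each mark 1 captured RNA molecule. A cell was a member if it had at least 1 UMI of Cdh5, at least 1 of Runx1 and at least 1 of Gfi1, Neurl3 or Adgrg1, no UMI of Spi1, Myb or Ptprc, and fewer than 3 of Pf4. Of 20836 cells with at least 1000 detected genes and under 10% mitochondrial UMIs, 139 met the rule: 44 and 37 in KO replicates 1 and 2, and 17 and 41 in WT replicates 1 and 2. They were set against 2606 arterial cells, defined by at least 1 Gja5 UMI and no Runx1 UMI (488, 850, 213 and 1055 in the same order of libraries). They were also set against 293 blood-committed cells (122, 74, 28 and 69), which met the first 3 limits and also had a UMI of Spi1, Myb or Ptprc. The genes in these rules chose the cells, so their levels are given as a description without a test.

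The tissue was the embryonic aorta-gonad-mesonephros (AGM) at embryonic day 10.5, the site where definitive blood stem cells arise. KO embryos were miR-223-/-, lacking a microRNA best known from myeloid cells, and WT embryos were wild type and matched in age. All were sorted for the endothelial protein CD31 and against the blood protein CD45, so every group lacks cells that already carry CD45 on their surface. Each genotype had 2 libraries made with the 10x Genomics 3' kit, and the library is the replicate. From which embryos or litters a library was made is not in the labels, and the spread between libraries, on which p-values rest, may be technical.

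Runx1 is the transcription factor that endothelial cells need to become blood. It switches on Gfi1, a repressor that shuts down endothelial genes, and works beside Gata2, Tal1, Lyl1, Lmo2, Erg and Fli1. The aortic endothelium first acquires an arterial programme under Notch signalling, and hemogenic cells then lower it as Spi1 (PU.1) and Myb, which mark blood commitment, come on.

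The microRNA that KO embryos lack is shown because its seed (bases 2 to 8, in capitals) is what pairs with its targets. It lies on chrX:96242884-96242905, plus strand (RefSeq, GRCm38.p6).
mmu-miR-223-3p: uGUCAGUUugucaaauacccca

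The 2 promoters of Runx1 are shown because Runx1 chooses the members and is known to bind its own distal promoter. Each window is 300 bases of RefSeq sequence on GRCm38.p6, minus strand, written 5' to 3'. The distal one is chr16:92826025-92826324 and the proximal one chr16:92697280-92697579. Capitals mark matches to the RUNX core TGTGGT on either strand, which in this window reads ACCACA.
Runx1 distal: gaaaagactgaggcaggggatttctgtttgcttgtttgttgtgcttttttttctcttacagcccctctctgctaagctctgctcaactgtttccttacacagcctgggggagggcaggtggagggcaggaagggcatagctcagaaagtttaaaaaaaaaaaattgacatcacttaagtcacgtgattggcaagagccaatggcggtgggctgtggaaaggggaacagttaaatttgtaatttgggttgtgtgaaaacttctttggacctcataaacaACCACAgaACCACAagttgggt
Runx1 proximal: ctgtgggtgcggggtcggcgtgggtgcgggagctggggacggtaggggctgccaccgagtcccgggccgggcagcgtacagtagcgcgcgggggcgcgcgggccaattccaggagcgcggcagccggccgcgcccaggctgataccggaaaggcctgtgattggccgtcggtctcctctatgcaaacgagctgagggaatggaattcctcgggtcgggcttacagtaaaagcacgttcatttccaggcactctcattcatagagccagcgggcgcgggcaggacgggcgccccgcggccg

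The distal window held 2 matches, starting at bases 279 and 287, and the proximal window held 0. The motif was found in 16.8% of 32851 promoters of this length. Counts from the 3' end of a transcript do not tell which promoter made it.

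The libraries held 6119 and 10299 barcodes in KO and 3917 and 11186 in WT, with 109713066 and 167542930 UMIs in KO and 95158639 and 181682389 in WT. Members were deeper than arterial cells in every library, with medians of 20043, 24749, 58447 and 22237 UMIs per cell against 14868.5, 15449.5, 24605 and 14286 (KO replicates 1 and 2, then WT replicates 1 and 2). A deeper cell has a higher chance of showing a UMI of Runx1 and of a marker, and also of Spi1, Myb or Ptprc. No barcode of a member was shared between libraries. Doublet scores called 5, 7, 2 and 11 members (11.4%, 18.9%, 11.8% and 26.8%), against 9.22%, 14.7%, 7.04% and 15.0% of arterial cells. WT replicate 1 stood apart: its 17 members were the deepest, and their summed mesenchymal markers reached 526 CPM (UMIs per 1000000 UMIs of the same class and library), against 26.9 to 99.0 CPM in the members of the other libraries. KO replicate 1 stood apart in Xist, the transcript of the inactive X chromosome. Its members had 0 Xist UMIs, against 292 CPM in KO replicate 2 and 301 and 319 CPM in the WT libraries, and its arterial cells had 0 as well, against 253 to 291 CPM. Ddx3y, a Y-linked gene, was present in the members of all 4 libraries (27.4 and 20.4 CPM in KO, 29.9 and 32.6 CPM in WT). The part of these markers and of Xist in the results was not tested.

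Hemogenic cells were rare in both genotypes. They made up 1.01% (exact 95% binomial interval 0.735 to 1.35) and 0.574% (0.404 to 0.790) of the filtered cells in KO libraries, and 0.714% (0.416 to 1.14) and 0.536% (0.385 to 0.726) in WT libraries. The mean was 0.792% ± 0.308 in KO and 0.625% ± 0.126 in WT (SD, n = 2 each). The genotypes overlapped, and the difference of 0.167 percentage points had an exact two-sided permutation p of 0.667; with 2 libraries against 2 the smallest possible p is 0.3333. Intervals cover counting error only. Without KO replicate 1 the KO minus WT difference in the hemogenic share of cells was -0.0511 points.

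The share was also counted at equal depth, as the libraries differ in UMIs per cell. When every cell was thinned at random to 5000 UMIs and shallower cells were left out, 28 of 4301 and 17 of 6247 cells met the rule in KO (0.651% and 0.272%), and 1 of 2341 and 12 of 7355 in WT (0.0427% and 0.163%). Both KO libraries then lay above both WT libraries, by 0.359 points on average, with the smallest exact permutation p the design allows (0.3333). In 20 draws of the thinning this order held in 17, and the difference ran between 0.209 and 0.406 points. The whole rule was applied to the thinned counts, so a cell that lost its Spi1, Myb or Ptprc UMIs could enter the class. As sequenced, blood-committed cells with a single UMI of these genes numbered 27 and 11 in KO, and 3 and 7 in WT. The part of such cells in the difference at equal depth was not tested.

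A stricter limit of 2 Runx1 UMIs left 17 and 11 cells in KO and 2 and 11 cells in WT. That is 0.390% and 0.171% of the cells in KO and 0.0840% and 0.144% in WT, a difference of 0.166 points (exact permutation p = 0.333). The intervals of both KO libraries (0.227 to 0.624 and 0.0852 to 0.305) overlapped those of both WT libraries (0.0102 to 0.303 and 0.0718 to 0.257). Members with exactly 1 Runx1 UMI were 0.620% and 0.403% of the filtered cells in KO and 0.630% and 0.392% in WT. The mean was 0.511% in both genotypes. Blood-committed cells were 2.80% and 1.15% in KO and 1.18% and 0.902% in WT, also overlapping.

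**Figure D1:**
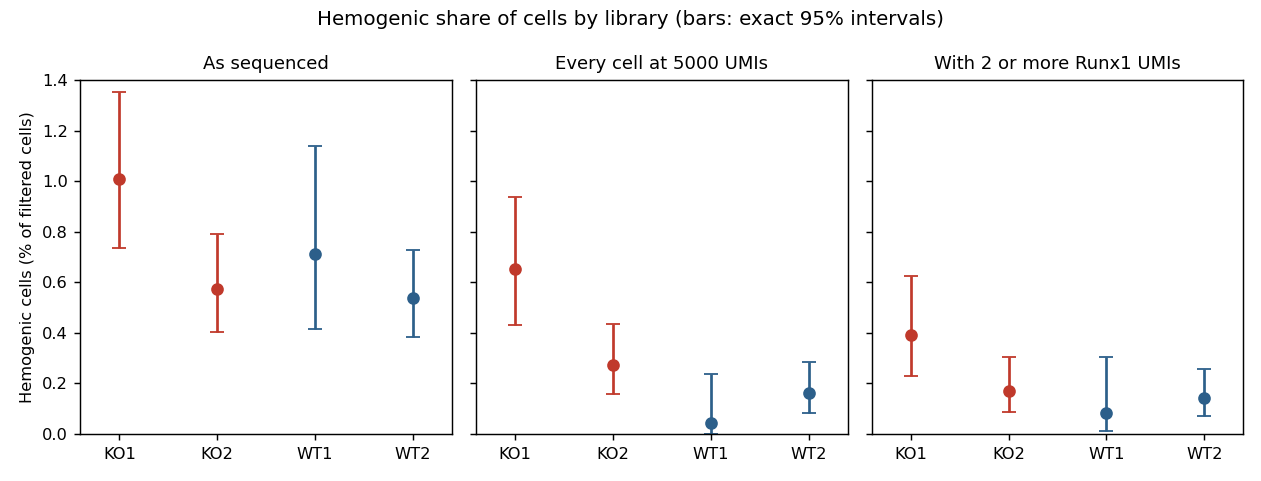
Hemogenic cells as a percentage of filtered cells (vertical axis) in KO (red) and WT (blue) libraries; points are libraries and bars are exact 95% intervals. As sequenced the genotypes overlap at 0.536% to 1.01%; with every cell at 5000 UMIs the KO libraries read 0.651% and 0.272% and the WT libraries 0.0427% and 0.163%; the right panel counts cells with 2 or more Runx1 UMIs.

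Most members rested on a single Runx1 molecule. Of the 139, 98 (70.5%) had 1 Runx1 UMI, 17 had 2 to 3, and 24 had 4 or more, up to 13. By genotype, 27 and 26 members had 1 Runx1 UMI in KO, and 15 and 30 in WT. Members with 1 Runx1 UMI were deeper (median 25368.5 UMIs per cell) than those with 2 or more (18973).

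The 3 hemogenic markers did not mark the same members. Adgrg1 (Gpr56), an adhesion receptor of emerging stem cells, was the lone marker in 41 members, and Neurl3, a ubiquitin ligase gene used to mark hemogenic endothelium, in 37. Gfi1 was the lone marker in 4, while all 3 were present in 29. Outside the class, among Cdh5 cells without Runx1, a UMI of Adgrg1 was found in 7.70% to 14.9% of the cells of a library, of Neurl3 in 6.22% to 10.4% and of Gfi1 in 0.235% to 0.873%. Gfi1 was found in 87.8% of the 41 members with 2 or more Runx1 UMIs and in 15.3% of the 98 with 1. For Neurl3 these shares were 75.6% and 54.1%, for Adgrg1 80.5% and 58.2%, and for the arterial connexin Gja5 75.6% and 40.8%.

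Levels of the gate genes differed between libraries. Runx1 was at 94.5 and 77.7 CPM in KO members and 20.3 and 65.3 CPM in WT members, and at 81.7 to 170 CPM in blood-committed cells. Gfi1 was at 58.3 and 24.3 CPM in KO members and 4.27 and 34.5 CPM in WT members, against 0.653 to 3.35 CPM in arterial cells. WT replicate 1 had the lowest level of Runx1, Gfi1, Neurl3 and Adgrg1 among the 4 libraries. Cdh5, the VE-cadherin of endothelial junctions, lay between 498 and 631 CPM in members, between arterial cells (751 to 865) and blood-committed cells (228 to 352).

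Members just inside and outside the limits were as follows. Of the members, 122 had no Pf4 UMI, 15 had 1 and 2 had 2; 4 further cells met every other limit but had 3 to 9 Pf4 UMIs, and 10 had 10 or more. Another 414 cells had Cdh5 and Runx1, no blood gene and none of the 3 markers (60 and 137 in KO, 47 and 170 in WT). Of the 293 blood-committed cells, 48 had a single UMI of Spi1, Myb and Ptprc together. Free RNA in the droplets can give such single UMIs, and its part here was not tested. Germ cells, which should lack Runx1, were taken as cells with at least 2 of Dppa3, Dnd1, Pou5f1 and Nanos3 and no Cdh5 UMI. Leaving out cells with Cdh5 may also leave out droplets with more free endothelial RNA, so shares in germ cells may be too low. Among germ cells, 1 of 57 and 2 of 79 had a Runx1 UMI in KO, and 0 of 16 and 0 of 82 in WT. Over the 4 libraries that was 1.28% of 234 germ cells, whose median depth was 34976 to 55765 UMIs. In the same cells Adgrg1 had a UMI in 5.13%, and Neurl3 and Gfi1 in 0.427% each.

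With every cell at 5000 UMIs and the libraries pooled, detection in members with 2 or more Runx1 UMIs is set beside that in members with 1. Ikzf2 (Helios), a zinc finger factor of blood cells, was detected in 61.0% of the 41 members with 2 or more and in 15.5% of the 97 deep enough with 1. Gata2 was detected in 39.0% and 12.4%, the stem cell factor Hlf in 22.0% and 2.06%, and the protein C receptor Procr (EPCR) in 68.3% and 30.9%. The arterial connexin Gja4 was detected in 75.6% and 44.3%. The venous genes went the other way: Nr2f2 (COUP-TFII), the factor that sets venous identity, was detected in 7.32% and 26.8%, and the apelin receptor Aplnr in 12.2% and 42.3%. These shares describe cells parted by a gate gene and carry no test. The sets also differ in their libraries. As sequenced, members with 2 or more numbered 17 and 11 in KO and 2 and 11 in WT. Those with 1 numbered 27 and 26 in KO and 15 and 30 in WT. Among all members, Nr2f2 was detected in 11.4% and 11.1% in KO and 41.2% and 31.7% in WT. Aplnr was detected in 20.5% and 27.8% in KO and 64.7% and 39.0% in WT. The part of the libraries in the pooled shares was not tested. In germ cells at the same depth, Ikzf2 was detected in 1.78%, Hlf in 0 of 225 cells and Procr in 0.889%.

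**Figure D2:**
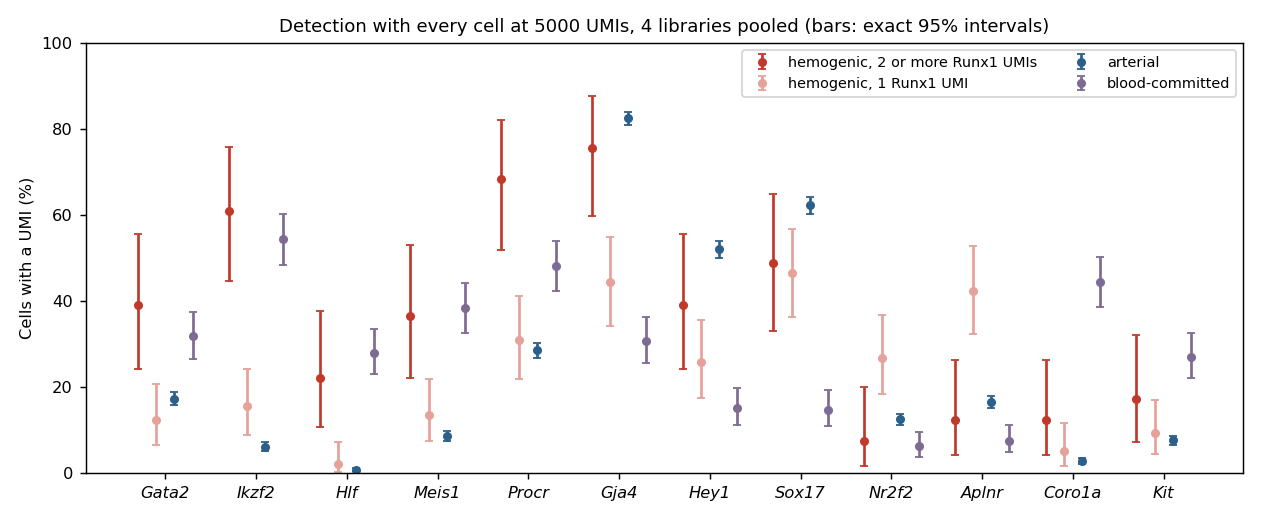
Percentage of cells with a UMI of each gene (vertical axis) after every cell was thinned to 5000 UMIs, over the 4 libraries pooled; bars are exact 95% intervals for counting error. Members with 2 or more Runx1 UMIs show Ikzf2 in 61.0% and Procr in 68.3% of cells, and members with 1 Runx1 UMI show Aplnr in 42.3%.

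The marker lists were read as sums over all members of a library. Since 70.5% of members had 1 Runx1 UMI, the sums describe the class and do not settle the name for each member. Summed pan-endothelial markers were at 3477 to 4325 CPM in members, 5337 to 5589 in arterial cells and 1693 to 2344 in blood-committed cells. The 9 blood progenitor markers outside the gates were at 118 to 193 CPM in members, 141 to 169 in arterial cells and 412 to 575 in blood-committed cells, and Cd48, Vav1 and Cd33 were at 0 in all members. Megakaryocyte markers outside the gates were at 6.41 to 22.3 CPM in members and 3.47 to 5.77 in arterial cells, with Gp1bb and Gp6 at 0 in members. Macrophage markers were at 11.7 to 22.4 CPM in members and 4.58 to 8.60 in arterial cells, with Adgre1, Cx3cr1, C1qa and Timd4 at 0. Arterial markers were at 667 and 789 CPM in KO members and 393 and 666 in WT members, against 1401 to 1463 in arterial cells. Venous markers were at 792 and 1111 CPM in KO members and 1503 and 1249 in WT members, against 1016 to 1117 in arterial cells.

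UMI counts were summed per library over members and over arterial cells and compared with edgeR's quasi-likelihood test with the library as a term, with p-values adjusted by Benjamini-Hochberg over the 10701 genes tested. At an adjusted p under 0.05, 884 genes were higher in hemogenic cells (8.26% of those tested) and 975 lower (9.11%), together 17.4%. Of these 1859 genes, 1721 lay on the same side in all 4 libraries. Since members are deeper, a second comparison took 3 arterial cells of like UMI count for each member; it called 635 of 9273 genes (6.85%), 218 higher (2.35%) and 417 lower (4.5%). The last took all cells with Cdh5 and no Runx1 in place of arterial cells, and called 1325 of 13497 genes (9.82%), 500 higher (3.7%) and 825 lower (6.11%). Arterial cells were chosen by Gja5, so low arterial genes in members are not independent of that choice.

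Several factors of blood stem cells were higher in hemogenic cells. Ikzf2 was at 51.2, 42.7, 20.3 and 43.2 CPM in hemogenic cells, against 14.4, 10.7, 6.10 and 11.8 in arterial cells (KO replicates 1 and 2, then WT replicates 1 and 2, as in all such lists below). Every hemogenic value lay above every arterial value, and the log2 difference was 1.87 (SE 0.167, edgeR adjusted p = 3.34e-09). It was 2.32 against arterial cells of like depth and 3.50 against all Cdh5 cells without Runx1.

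Meis1, a homeobox factor of blood stem cells, was at 54.8, 35.0, 29.9 and 29.8 CPM in hemogenic cells, against 24.2, 13.1, 13.2 and 15.9 in arterial cells. The groups did not overlap, and the log2 difference was 1.16 (SE 0.158, edgeR adjusted p = 3.93e-06). Hlf was at 23.9, 12.6, 3.21 and 10.6 CPM in hemogenic cells, against 1.45, 1.19, 0.709 and 1.52 in arterial cells. Its log2 difference was 3.28 (edgeR adjusted p = 3.3e-07), and it had too few UMIs to be tested at matched depth.

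Nupr1, a stress-responsive chromatin factor, was at 43.3, 18.5, 2.14 and 12.5 CPM in hemogenic cells, against 3.69, 2.01, 1.28 and 5.66 in arterial cells. Here the members of WT replicate 1 lay within the arterial range, and the log2 difference was 2.52 (SE 0.418, edgeR adjusted p = 0.000846). Art4, the gene of a blood group antigen, rose by 1.60 on the log2 scale, and Phgdh, the first enzyme of serine synthesis, by 1.51. Art4 rose by 2.23 at matched depth. The difference in Phgdh was 1.25 at matched depth and 0.47 against all Cdh5 cells.

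Some genes of blood cells were detected at low levels. Coro1a, an actin regulator of leukocytes, was at 14.1, 15.5, 6.41 and 21.1 CPM in hemogenic cells, against 5.93, 5.53, 4.68 and 5.60 in arterial cells (log2 difference 1.39, SE 0.269, edgeR adjusted p = 0.000396). Angpt1, the ligand of the Tek receptor, rose by 1.98, and Itgb3, an integrin of platelets and early blood cells, by 2.14. These were the called members of small lists: 2 of 7 tested early blood and myeloid genes were higher and 0 lower. Of 5 tested megakaryocyte genes, 1 was higher and 2 were lower. Over all tested genes 8.26% were higher and 9.11% lower.

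**Figure D3:**
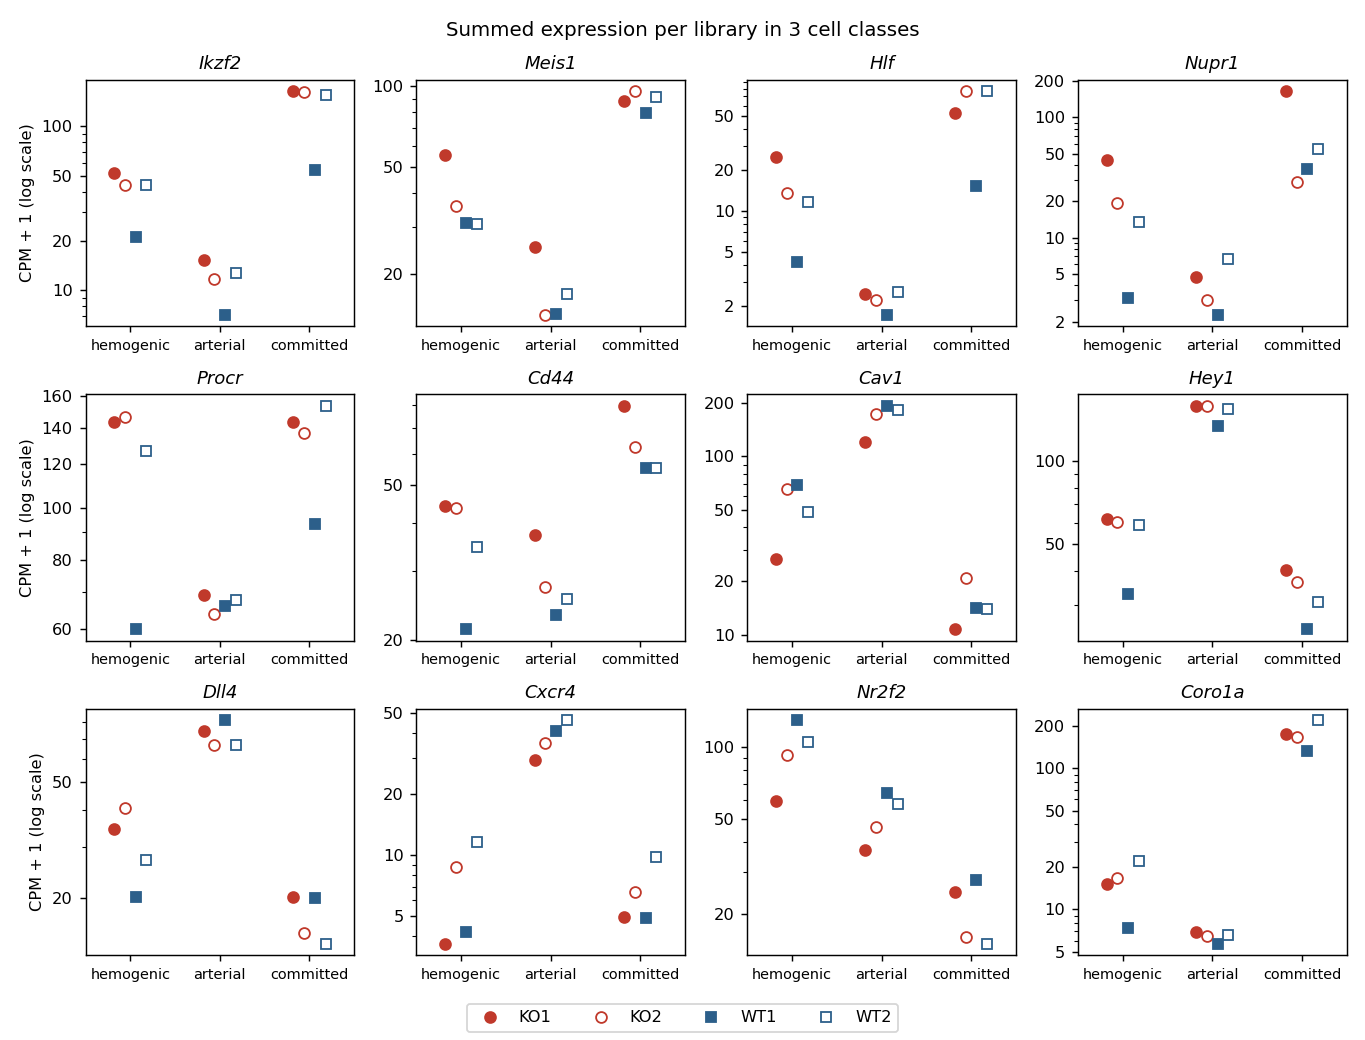
CPM + 1 on a log axis for 12 genes in hemogenic, arterial and blood-committed cells, 1 point per library (KO circles, WT squares; filled, replicate 1; open, replicate 2). Ikzf2 and Meis1 separate hemogenic cells from arterial cells in every library, Hey1 and Cxcr4 do so in the other direction, and the members of WT replicate 1 lie apart from those of the other 3 libraries for Procr and Nupr1.

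Among 19 tested hemogenic and stem cell factors, 7 were higher in hemogenic cells and 3 lower. The shares over all genes were 8.26% and 9.11%. The factors had a median log2 difference of 0.22, against 0.0085 over all tested genes. Besides Ikzf2, Meis1 and Hlf, the higher factors were Mycn (1.28), Hoxa9 (0.73), Myc (0.71) and Hhex (0.31). Lmo2, the bridging factor of the blood transcription complex, was lower (-0.39, SE 0.0714), as were Fli1 (-0.36) and the co-repressor Cbfa2t3 (-0.35). The partners usually named with Runx1 did not pass: Gata2 differed by 0.21 (edgeR adjusted p = 0.329), Tal1 by 0.22 and Lyl1 by 0.27. Without WT replicate 1, Lyl1 passed (0.40, adjusted p = 0.0457).

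The same partners were read in members split by their Runx1 UMIs, a gate gene, and the difference between the split sets was not tested. In members with 2 or more Runx1 UMIs Gata2 was at 73.0, 124, 97.9 and 81.0 CPM, against 25.8, 27.8, 26.0 and 27.3 CPM in members with 1 Runx1 UMI. Arterial cells had 39.9, 34.7, 28.8 and 33.7 CPM, above the members with 1 Runx1 UMI in each library. Against arterial cells, the members with 2 or more gave log2 differences of 1.24 for Gata2, 1.02 for Tal1, 0.85 for Lyl1, 1.85 for Meis1 and 3.26 for Ikzf2. In that comparison 9 of 18 tested factors were higher and 1 lower (median 0.65), where 8.74% of all genes passed (2.53% higher and 6.21% lower). WT replicate 1 has only 2 such cells.

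Surface genes of emerging stem cells were uneven. Kit, the stem cell factor receptor, was at 23.9, 20.4, 20.3 and 37.4 CPM in hemogenic cells, against 15.0, 18.4, 15.9 and 17.4 in arterial cells (log2 difference 0.61, SE 0.185, edgeR adjusted p = 0.0219), and the groups did not overlap. Kit did not pass without KO replicate 1 (0.58, adjusted p = 0.0672), without WT replicate 2 (0.38, adjusted p = 0.306) or with DESeq2 (adjusted p = 0.109). At matched depth the difference was 0.33 (adjusted p = 0.407). Procr was at 142, 146, 58.8 and 126 CPM in hemogenic cells, against 68.2, 62.7, 65.1 and 66.6 in arterial cells. WT replicate 1 alone went the other way. Procr missed the threshold over all libraries (0.84, edgeR adjusted p = 0.0978) and passed without WT replicate 1 (1.07, adjusted p = 4.78e-10) and without WT replicate 2 (0.80, adjusted p = 0.000718). Cd44, a hyaluronan receptor, differed by 0.36 (adjusted p = 0.0951), by 0.47 without WT replicate 1 (adjusted p = 0.0319) and by 0.76 at matched depth (adjusted p = 0.00742). Itga2b (CD41), the first integrin of blood cells, was at 4.42, 4.86, 7.48 and 4.80 CPM in hemogenic cells and 3.24, 6.09, 2.98 and 4.68 in arterial cells, which overlap (adjusted p = 0.634). Of the 17 tested genes of this surface list, 4 were higher and 6 lower, where 8.26% of all genes were higher and 9.11% lower.

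The arterial programme was lower. Of 21 tested arterial identity genes, 16 were lower in hemogenic cells and 0 higher, with a median log2 difference of -1.07. Over all genes 9.11% were lower and 8.26% higher. Hey1, a transcription factor driven by Notch, was at 61.0, 59.3, 32.1 and 57.6 CPM in hemogenic cells, against 158, 159, 133 and 154 in arterial cells (log2 difference -1.53, SE 0.107, edgeR adjusted p = 3.73e-11). Dll4, the arterial Notch ligand, was at 33.6, 39.8, 19.2 and 25.9 CPM in hemogenic cells, against 73.7, 65.9, 80.4 and 65.7 in arterial cells (log2 difference -1.26, SE 0.154, edgeR adjusted p = 3.85e-06). For both genes every hemogenic value lay below every arterial value.

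Cxcr4, a chemokine receptor of arterial tip cells, was at 2.65, 7.77, 3.21 and 10.6 CPM in hemogenic cells, against 28.6, 34.7, 39.7 and 45.3 in arterial cells, the largest difference among the 21 tested arterial identity genes (log2 -2.62, SE 0.231). Unc5b, a netrin receptor, fell by 1.69 and Sox17, an arterial factor upstream of Notch, by 0.80. Gja4 was at 255, 271, 108 and 222 CPM in hemogenic cells, against 631, 589, 592 and 543 in arterial cells. It did not pass over all libraries (-1.48, edgeR adjusted p = 0.0608) and passed without WT replicate 1 (-1.23, adjusted p = 1.30e-15). Mecom (Evi1), which is shared by arterial and stem cells, differed by -0.71 (adjusted p = 0.191), by -0.50 without WT replicate 1 (adjusted p = 2.09e-05) and by -0.84 without WT replicate 2 (adjusted p = 0.00813).

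Notch genes were lower too. Of 18 tested, 11 were lower and 0 higher (9.11% and 8.26% of all genes). The lower ones included the receptor Notch1 (-0.76), and Hey2 (-0.87). Hes5, a Notch target, had 3 UMIs in all members together and 8.54 to 12.5 CPM in arterial cells. At matched depth 7 of 18 Notch genes and 11 of 21 arterial genes stayed lower and 0 of either were higher, where 4.5% of all genes were lower.

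The direction depends on the cells compared. Against all Cdh5 cells without Runx1, which include venous and capillary endothelium, 10 of 21 arterial genes were higher in hemogenic cells and 1 was lower (median 0.26), where 3.7% of all genes were higher and 6.11% lower. There Gja4 differed by 0.76, Hey2 by 1.67, Efnb2, the arterial ephrin, by 0.76, and Mecom by 1.04. Hey1 (0.16), Dll4 (0.13) and Sox17 (0.17) did not pass.

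General endothelial genes were lower too, where 9.11% of all genes were lower and 8.26% higher against arterial cells. Of 20 tested, 16 were lower and 0 higher (median -0.44), among them Pecam1, which codes for CD31 (-0.68, SE 0.0713), and Icam2, an adhesion protein of endothelial junctions (-0.91, SE 0.0664). At matched depth 11 of 20 stayed lower (4.5% of all genes), and 5 of 20 were lower against all Cdh5 cells (6.11% of all genes). Cav1, the coat protein of caveolae, was at 25.6, 65.1, 68.4 and 48.0 CPM in hemogenic cells, against 119, 173, 192 and 181 in arterial cells (log2 difference -1.72, SE 0.108, edgeR adjusted p = 5.27e-12). Tm4sf1, a tetraspanin-like protein of endothelial protrusions, fell by 1.51, and the basement membrane genes Sparc, Col4a1 and Col4a2 by 0.88, 0.86 and 0.87. Slc2a1, the main glucose transporter of endothelium, fell by 1.03, although of the 14 tested genes of glycolysis 4 were higher and 1, Slc2a1 itself, was lower.

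Venous genes did not fall with the arterial ones. Of 11 tested, 4 were higher and 0 lower, where 8.26% of all genes were higher and 9.11% lower. Nr2f2 was at 58.3, 91.3, 128 and 104 CPM in hemogenic cells, against 36.1, 45.3, 63.3 and 56.6 in arterial cells (log2 difference 0.90, SE 0.0996, edgeR adjusted p = 1.61e-07), and Aplnr rose by 0.85. Nrp2, a receptor of venous and lymphatic cells, rose by 0.98. Within each library the hemogenic value was the higher one, though the ranges overlapped between libraries for Nr2f2. In members with 2 or more Runx1 UMIs the signs were the reverse (Nr2f2 -0.87, adjusted p = 0.0550; Aplnr -0.84, adjusted p = 0.596). Of 11 tested venous genes, 0 were higher and 3 lower there, where 2.53% of all genes were higher and 6.21% lower.

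Genes of division were higher in hemogenic cells. Of 23 tested S phase genes, 19 were higher and 0 lower (median 0.48). Of 20 tested genes of G2 and mitosis, 17 were higher and 0 lower (median 0.56). Over all genes 8.26% were higher and 9.11% lower. Top2a, the topoisomerase of dividing cells, was at 320, 291, 339 and 343 CPM in hemogenic cells, against 223, 197, 195 and 221 in arterial cells, without overlap (log2 difference 0.62, SE 0.0628, edgeR adjusted p = 3.27e-08). Mki67 rose by 0.63 and the replication helicase gene Mcm7 by 0.70.

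At like depth fewer of these genes passed. Against arterial cells of like UMI count, 3 of 23 S phase genes (median 0.29) and 1 of 20 genes of G2 and mitosis (median 0.16) were higher. Of all genes, 2.35% were higher at like depth. Top2a then differed by 0.24 (edgeR adjusted p = 0.0370) and Mki67 by 0.17 (adjusted p = 0.591). Against all Cdh5 cells without Runx1, 0 of 23 S phase genes were higher and 2 were lower. Of all genes, 3.7% were higher and 6.11% lower in that comparison. The nucleolar genes Npm1, Ncl and Gnl3 rose by 0.49, 0.55 and 0.73 over arterial cells; against all Cdh5 cells Npm1 (-0.10) and Ncl (-0.040) did not pass.

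**Figure D4:**
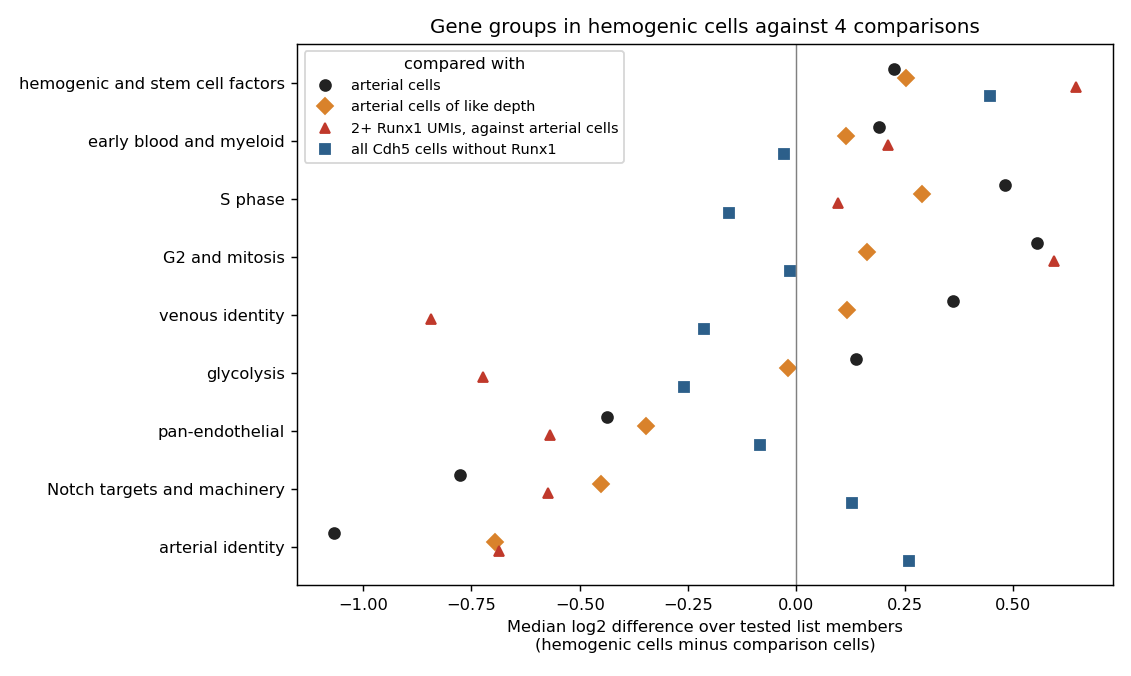
Median log2 difference over the tested members of 9 gene groups (horizontal axis), hemogenic cells minus comparison cells: black, arterial cells; orange, arterial cells of like depth; red, members with 2 or more Runx1 UMIs against arterial cells; blue, all Cdh5 cells without Runx1. Arterial identity genes read -1.07 against arterial cells and 0.26 against all Cdh5 cells, and G2 and mitosis genes read 0.56 against arterial cells and 0.16 at like depth.

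In the other groups the counts stand beside the 17.4% of all tested genes called. Of 16 tested genes of the cytoskeleton and junctions 1 was higher and 6 were lower (43.8%), among them F11r (-0.79) and Gja1 (-0.68), both genes of cell junctions. Of 23 tested genes described as miR-223 targets 5 were higher and 6 lower (47.8%), among them Myl9 (-1.30), a myosin light chain, with a median of -0.07. Of 14 tested genes of the endothelial-to-mesenchymal change 0 were higher and 3 lower (21.4%), and of 18 inflammatory and interferon genes 0 were higher and 4 lower (22.2%). Of 27 tested genes of N-glycan precursor assembly 1 was higher and 3 were lower (14.8%), and of 20 of oxidative phosphorylation 0 were higher and 2 lower (10.0%). Of 8 tested mesenchymal genes none passed in either direction (0 of 8 by edgeR). Germ cell markers were at 1.77 to 3.84 CPM in hemogenic cells and 24.7 to 40.9 in arterial cells. Beside them stood Dppa5a, a pluripotency gene active in germ cells, among the lower genes with 3 UMIs in all members together, against 25.5 to 62.7 CPM in arterial cells. Members had to carry Cdh5 and arterial cells did not: 2554 of the 2606 arterial cells had a Cdh5 UMI. The part of arterial cells without Cdh5 in these germ cell differences was not tested. With a Cdh5 UMI required in arterial cells, 1971 of 10637 genes were called. Of the promoters that could be matched by symbol, the RUNX core was present in 13.1% of 717 of the 884 higher genes, 13.7% of 751 of the 975 lower genes and 14.2% of 8411 of the genes tested.

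The step to blood commitment was read by setting the 139 members against the 293 blood-committed cells, a comparison added after the counts were seen. Of 8641 genes tested, 1361 were higher in hemogenic cells (15.8%) and 1137 lower (13.2%), together 28.9%. All 20 tested pan-endothelial genes and 16 of 19 arterial genes were higher in hemogenic cells. The vascular growth factor receptor Kdr was at 268, 430, 414 and 399 CPM in hemogenic cells, against 132, 133, 123 and 137 in blood-committed cells (log2 difference 1.49, SE 0.101, edgeR adjusted p = 8.38e-10). Sox17 was higher by 1.52, Gja4 by 1.05, Nr2f2 by 2.20 and the cyclin gene Ccnd1 by 1.84.

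Blood genes were lower in hemogenic cells, with 10 of 12 tested early blood and myeloid genes lower and 1 higher (13.2% and 15.8% of all genes). Blood-committed cells were chosen by Spi1, Myb or Ptprc, so this direction is not independent of that choice. Coro1a was at 14.1, 15.5, 6.41 and 21.1 CPM in hemogenic cells, against 174, 166, 132 and 218 in blood-committed cells (log2 difference -3.59, SE 0.153, edgeR adjusted p = 1.22e-13). Rac2, a GTPase of blood cells, had 1 UMI in all members together, against 25.5 to 94.1 CPM in blood-committed cells. Plek, a platelet and leukocyte signalling gene, also had 1, against 20.7 to 120 CPM. Gfi1b, the paralogue of Gfi1, had 0 UMIs in the members of every library and 8.50, 12.4, 24.8 and 16.5 CPM in blood-committed cells.

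Of 20 tested stem cell factors, 1 was higher in hemogenic cells than in blood-committed cells, 10 were lower and 9 did not pass. In this comparison 15.8% of all genes were higher and 13.2% lower. Ikzf2 differed by -1.75, Meis1 by -1.23, Tal1 by -0.97, Gata2 by -0.61 and Kit by -1.43, each with hemogenic cells lower; Gata2 did not pass with DESeq2 (adjusted p = 0.0602). Meis1 thus lay between its arterial levels (13.1 to 24.2 CPM) and its blood-committed levels (78.4 to 95.2 CPM). Procr (-0.16, edgeR adjusted p = 0.311), Mecom (0.17, adjusted p = 0.283, and 0.27 with an adjusted p of 0.0481 without WT replicate 1), Fli1 (0.05) and Lmo2 (0.02) did not pass. Pf4, the platelet factor, was at 3.21 to 5.83 CPM in hemogenic cells and 17.9 to 2405 CPM in blood-committed cells. The megakaryocyte markers outside the gates were at 6.41 to 22.3 CPM in hemogenic cells and 70.5 to 419 CPM in blood-committed cells. Members had to have fewer than 3 Pf4 UMIs, while blood-committed cells had no Pf4 limit. The differences in Pf4 and in megakaryocyte markers are therefore not independent of the gates.

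KO and WT hemogenic cells were compared over the 4 library sums of 8184 tested genes. Neither direction gave a call: 0.0% were higher and 0.0% lower at an edgeR adjusted p under 0.05. At an unadjusted p under 0.05 there were 298 genes by edgeR, while DESeq2 called 0 and had 61 unadjusted. With 1 library left out, edgeR called 3 and 1 genes without KO replicates 1 and 2, and 12 (0.137%; 0.0571% higher and 0.0799% lower) and 72 without WT replicates 1 and 2. The single call without KO replicate 2 was Xist, at 0 UMIs in the remaining KO library (adjusted p = 4.84e-12). On simulated counts of this design, with 98 genes changed at each size, 37.8% of genes changed by 1 on the log2 scale and 86.7% of genes changed by 2 were recovered. The simulated counts gave all genes the same spread between libraries, so recovery may be lower for genes that vary more. Differences of the size of a doubling could thus be missed, and larger ones in such genes. Of the 139 cells, 17 carry 1 of the 2 WT sums.

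The genes with the smallest p-values are given as values. They were chosen by their KO minus WT difference, so their separation by genotype is not independent of that choice. The share of all tested genes without overlap is not given. Wdfy1, an endosomal adaptor, was at 53.0 and 49.5 CPM in KO and 15.0 and 16.3 CPM in WT (log2 difference 1.74, SE 0.324, edgeR adjusted p = 0.204). Mxra7 was at 11.5 and 13.6 CPM in KO and 44.9 and 46.1 CPM in WT (-1.82, adjusted p = 0.204). The ribosomal gene Rps2, whose near-identical copies make its counts uncertain, was at 3526 and 3129 CPM in KO and 5801 and 5947 CPM in WT (-0.78, adjusted p = 0.204). These 3 genes did not overlap between the genotypes.

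Next came Dmd, dystrophin, at 15.9 and 17.5 CPM in KO and 3.21 and 2.88 CPM in WT (2.45, edgeR adjusted p = 0.586). Cited2, a transcriptional co-regulator needed for blood stem cells, was at 35.3 and 50.5 CPM in KO and 19.2 and 9.60 CPM in WT (1.62, adjusted p = 0.682). Lyve1, a hyaluronan receptor of lymphatic and venous endothelium, was at 5.30 and 0 CPM in KO and 48.1 and 25.9 CPM in WT (-3.64, adjusted p = 0.285). Few members carried Lyve1: 12 of the 139 had a UMI of it. With cells thinned to equal depth, Lyve1 was detected in 6.82% and 0% of KO members. In WT members it was detected in 11.8% and 4.88%, so the genotypes overlapped by share of cells. By CPM the genotypes did not overlap for Dmd, Cited2 and Lyve1 either, and over all 4 libraries none passed the test. Without WT replicate 1, Rps2 (-0.81, edgeR adjusted p = 0.0129), Lyve1 (-3.15, 0.0210), Cited2 (2.16, 0.0235) and Mxra7 (-1.85, 0.0312) passed. Without WT replicate 2, Rps2 (-0.75, edgeR adjusted p = 0.00462), Mxra7 (-1.78, 0.0148), Wdfy1 (1.82, 0.0148) and Lyve1 (-4.01, 2.49e-09) passed. Lyve1 also passed without KO replicate 1 (adjusted p = 0.0250) and with doublets left out (-5.29, adjusted p = 0.0294). Dmd passed under none of these settings.

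Arterial cells of the same libraries, with many more UMIs, gave 4 calls among 12349 genes (0.0324%; 0.0162% higher and 0.0162% lower), and Wdfy1 and Mxra7 were among them. Wdfy1 was at 51.1 and 54.4 CPM in KO arterial cells and 11.5 and 11.3 CPM in WT arterial cells (log2 difference 2.22, SE 0.165, edgeR adjusted p = 0.00696). Mxra7 was at 14.1 and 14.7 CPM in KO and 52.2 and 50.6 CPM in WT (-1.83, adjusted p = 0.00804). Without KO replicates 1 and 2 there were 5 and 13 calls, and without WT replicates 1 and 2 there were 52 and 156. The other 2 of the 4 calls were Rnaset2b, lower in KO (-3.46), and Npw, higher in KO (5.19). The Wdfy1 difference in hemogenic cells was not shown to differ from that in arterial cells (interaction -0.46, SE 0.327, edgeR adjusted p = 0.978). Over 11283 genes this interaction test called 2 (0.0177%, both higher and 0.0% lower), both globin genes; without KO replicates 1 and 2 it called 21 and 37, and without WT replicates 1 and 2 it called 6 and 70.

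By gene group the KO minus WT estimates leaned in some directions without any gene passing over all 4 libraries. For arterial identity, 20 of 20 estimates were above 0 with a median of 0.39, against 0.0045 over all genes. Gja4 was at 255 and 271 CPM in KO and 108 and 222 CPM in WT, and Hey2 at 20.3 and 29.1 CPM in KO and 6.41 and 11.5 CPM in WT. Gja4 passed without WT replicate 2 (1.34, edgeR adjusted p = 0.000914). Without WT replicate 1 the count was 17 above and 4 below, with a median of 0.13. In members with 2 or more Runx1 UMIs it was 9 above and 6 below.

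Of 9 venous genes, 1 estimate was above and 8 below 0 (median -0.62); without WT replicate 1 the count was 1 above and 9 below (median -0.57), and 2 of these 10 genes passed as lower. Nr2f2 was at 58.3 and 91.3 CPM in KO and 128 and 104 CPM in WT. For G2 and mitosis 0 of 20 estimates were above 0 (median -0.36), and 2 of 20 without WT replicate 1 (median -0.17). For S phase 18 were above and 5 below (median 0.19). For stem cell factors 13 were above and 6 below (median 0.36, and 0.11 without WT replicate 1). Members with 2 or more Runx1 UMIs made up 38.6% and 29.7% of members in KO and 11.8% and 26.8% in WT, and members with a Gja5 UMI 63.6% and 48.6% in KO and 29.4% and 48.8% in WT. The part of this make-up in the group medians was not tested.

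Genes described as targets of miR-223 did not lean one way in hemogenic cells. Of 21 tested, 9 estimates were above 0 and 12 below, with a median of -0.01. Mef2c, a transcription factor and known target, was at 162 and 268 CPM in KO and 192 and 289 CPM in WT, which overlap (log2 difference -0.14, SE 0.261, edgeR adjusted p = 1). Alg2, an enzyme of N-glycan assembly, was at 15.0 and 8.74 CPM in KO and 25.6 and 13.4 CPM in WT, which also overlap (-0.65, adjusted p = 1). The host transcript of the microRNA, F630028O10Rik, was at 6.18 and 3.89 CPM in KO members and 0 and 1.92 CPM in WT members. Where the deletion ends is not stated in the labels, and a 3' tag outside it checks no label.

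**Figure D5:**
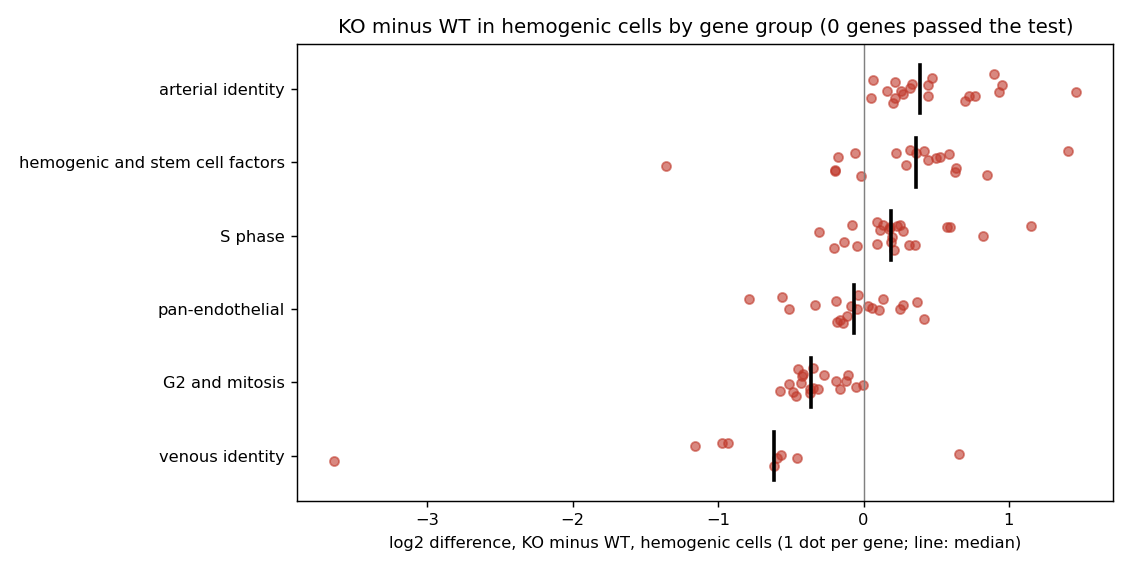
KO minus WT log2 differences in hemogenic cells (horizontal axis) for the tested genes of 6 groups, 1 dot per gene with the median as a line; none passed the test over the 4 libraries. Arterial identity genes have a median of 0.39, G2 and mitosis genes -0.36 and venous genes -0.62.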

How the data were processed

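Single-cell RNA was measured in 4 libraries. The authors deposited raw UMI counts per gene and barcode, made with Cell Ranger 3.1.0 per the file headers; Seurat 4 is also named in the submitters' processing notes. Neither build nor annotation was given in the sources used here. The files hold 31053 genes.

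The cell limits and gates stand in the report. Doublets were scored against simulated doublets and called at 0.8% per 1000 barcodes, but kept. UMIs were summed per library and class. Counts were tested with edgeR 4.0.16 (quasi-likelihood, robust, TMM, filterByExpr) in R 4.3.3, with Benjamini-Hochberg adjustment at 0.05. The 10 gate genes were left out of the tests between cell classes. In the KO against WT and interaction fits, those with enough UMIs were among the genes adjusted over, but their results are not given. DESeq2 1.42.0 was an alternative. The fits were tested on simulated counts. CPM values are sums per 1000000 UMIs of a class in a library.

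Members and the 21 gene lists were chosen with earlier results of these data known. Named are up to 12 genes per direction with the smallest adjusted p on 1 side in all libraries, the 3 with the smallest p where fewer than 3 pass, up to 4 members per list, and a fixed set given whatever the test. Depth matching, splits by Runx1 UMIs and the blood-committed comparison were added after seeing the data; Mycn, Hoxa9 and Myc were named after their values were seen.

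Replicate numbers were not taken to pair libraries, since the labels give no shared source.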

Additional observations from a re-analysis of the deposited data

Results flagged for a closer look

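The KO minus WT difference in 2 primitive globin genes was not the same in hemogenic and arterial cells by the interaction test. The log2 difference of differences was 3.78 for Hba-x (SE 0.293, edgeR adjusted p = 2.7e-08) and 5.005 for Hbb-bh1 (SE 0.511, adjusted p = 3.88e-06). Hba-x also passed with DESeq2 (adjusted p = 0.00304) and with each library left out, and not after thinning (1.91, adjusted p = 1). Hbb-bh1 did not pass with DESeq2 (adjusted p = 1), after thinning (adjusted p = 0.200) or without KO replicate 1 (adjusted p = 0.138). Hba-x was at 42.4 and 4.86 CPM in KO hemogenic cells and 37.4 and 4.80 CPM in WT hemogenic cells, but at 225 and 10.5 CPM in KO arterial cells and 2440 and 280 CPM in WT arterial cells. Globin genes together had 2681 and 211 UMIs in KO arterial cells and 21900 and 6356 in WT arterial cells. Arterial cells with 100 or more globin UMIs, 1 and 0 in KO and 3 and 2 in WT, held 83.1% and 0.0% of these in KO and 98.4% and 96.7% in WT. No hemogenic cell had 100 globin UMIs.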

How the results depend on the processing

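For the hemogenic share of cells, the KO minus WT difference ran between -0.0511 (without KO replicate 1) and 0.385 points (without KO replicate 2), and pairing by replicate number (replicate block) gave an exact p of 0.5, the smallest for 2 pairs. Hemogenic KO against WT gave between 1 and 72 calls with each replicate left out, 25 without a count filter, 1 without doublets and 42 with the replicate block. Arterial KO against WT gave 5 to 156, 10 with DESeq2, 52 without a filter and 16 with the block. The interaction gave 6 to 70, 1 with DESeq2, 26 without a filter, 7 without doublets, 1 after thinning and 44 with the block. Hemogenic against arterial gave 1094 calls with DESeq2, 715 after thinning, 745 with no replicate block, 716 for members with a Gja5 UMI, 1233 with Pf4 at 0, 920 for 2 or more Runx1 UMIs and 635 at matched depth. Of calls, 47.6% were higher, against 33.4% without a filter, 36.6% with no block, 33.5% for members with a Gja5 UMI, 28.9% for 2 or more Runx1 UMIs, 34.3% at matched depth and 37.7% against all Cdh5 cells. Hemogenic against blood-committed gave 1619 to 2684 with a replicate left out, 1291 with DESeq2 and 617 after thinning. Causes were not tested, but thinning and matching leave fewer UMIs.

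Against all Cdh5 cells without Runx1 the log2 sign turned for Aplnr (-0.50), Dctpp1 (-0.075), Dll4 (0.13), Efnb2 (0.76), Gja4 (0.76), Hey1 (0.16), Hey2 (1.67), Hspd1 (-0.048), Mecom (1.04), Ncl (-0.040), Npm1 (-0.10), Nr2f2 (-0.21), Nrp2 (-0.24), S100a11 (0.10), Sox17 (0.17), Tm4sf1 (0.70) and Unc5b (0.019). With a Gja5 UMI in the member it turned for Aplnr (-0.35), Efnb2 (0.17) and Hey2 (0.15), and with 2 or more Runx1 UMIs for Aplnr (-0.84), Efnb2 (0.12), Nr2f2 (-0.87) and Nrp2 (-0.60). Of 883 alternatives over the 50 genes named in this comparison, 775 kept sign and side of the threshold. Same-numbered libraries deviated together with a correlation of 0.196 over 8184 genes in hemogenic cells and 0.309 over 12349 genes in arterial cells, which with 2 pairs does not show that the numbers pair them.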
